A study of Mus musculus with 816 samples.

Results

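The comparison set 40 untreated cultures of primary mouse microglia, lysed 24 h after a change of medium, beside microglia isolated fresh from the brains of 4 mice. These are 44 of the 816 samples of the series, chosen by their labels (no treatment at 24 h, and PBS at 4 h) and read over the 29858 genes listed in both tables of values. The cultures were commercial neonatal microglia, with no strain, sex or donor number given in the sources used here. They had spent 4 days in coated 96-well plates and then received fresh medium with no stimulus. They came from 6 plates and 10 library pools, with 3 to 10 cultures per plate. Their column headers give 3 source IDs that name the supplier. These are called lots here, although the headers do not say that they are cell lots. The mice were C57BL/6 females 2 months old, the controls of an LPS experiment, injected intraperitoneally with PBS 4 h before isolation. Their brains were perfused, minced and digested with Accutase at 4 °C, myelin was removed over Percoll, and CD11b+ cells were held on a magnetic column. No allele or transgene is named for any group. Beside these stood 11 naive C57BL/6 males 2 months old, 25 untreated cultures lysed at 72 h, 4 cultures given TGFb for 72 h at 0.0001 µg/µl and 4 mice given LPS at 2 mg/kg for 4 h.

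Culture differed from the mice in age, isolation, library run and table all together, and the sex of the cultured cells is not given, so these cannot be told apart. The 2 tables were also normalized apart, so no test was run across them. Instead a gene was called higher or lower in cultures when no culture value overlapped a mouse value and the medians of log2(CPM + 1) differed by at least 2, a 4-fold difference. CPM are reads of a gene per 1000000 mapped reads. In bulk samples of this kind, fewer cells of a type and less RNA per cell cannot be told apart.

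Microglia are the resident macrophages of the brain. In the healthy adult brain they keep a homeostatic program of surface receptors, secreted proteins and transcription factors that needs TGFb and CSF1R signals from their surroundings. Microglia near plaques, damaged myelin or dying cells, and many macrophages outside the brain, instead express genes of lipid uptake, lysosomes and matrix breakdown, the disease-associated program.

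By the step between low values, which is what 1 read is worth, the cultures held 1.09 to 14.99 M mapped reads (M for 1000000), with a median of 5.36 M, and the PBS mice 5.05 to 6.93 M. Pairs of cultures had a median Spearman rho of 0.868 across genes (0.704 to 0.978) and pairs of PBS mice 0.962. A culture and a PBS mouse had a median rho of 0.692, with the highest of the 160 pairs at 0.739. PBS and naive mice had a median of 0.913. These values are across genes, which are not independent, and they share the composition of each library. Among the 100 genes with the highest medians, cultures and PBS mice shared 48 and naive and PBS mice 84. Chosen after their values were seen, Hnrnpll, which encodes an RNA-binding protein, alone held 50705 to 228394 CPM in the cultures and 19566 to 23844 CPM in the PBS mice. The 13 mitochondrial genes together held 8211 to 41601 CPM in the cultures and 104481 to 131203 CPM in the mice. Their part in the results was not tested directly, but leaving both and the mitochondrial copy Gm29216 out and rescaling gave 350 higher and 716 lower calls.

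Of 10854 genes with more than 5 CPM in at least 4 of the 44 samples, 367 were called higher in cultures (3.38%) and 644 lower (5.93%), together 9.31%. The median difference over all genes entered was -0.07 on the log2 scale. Another 287 genes had medians 4-fold higher in cultures, and 295 had medians 4-fold lower, with values that overlapped. Differences of at least 5 were called for 47 genes higher and 89 lower. Among the genes called lower, 179 had a culture median of 0 CPM and 22 were listed at 0 in every culture. The median SD of a called gene was 0.69 over the cultures and 0.28 over the mice, on the log2(CPM + 1) scale. Just inside the minimum lay Itsn1 (2.01) above and St3gal2 (-2.002) and Nuak1 (-2.01) below, and just outside it Atpif1 (1.98), Nqo2 (1.97), Add3 (-1.998) and Itga6 (-1.99). By the same rule, PBS mice differed from naive mice in 27 genes higher (0.267%) and 44 lower (0.435%) of 10105, and in limma in 401 (3.97%) and 994 (9.84%). Sex, handling and library batch differed together between PBS and naive mice, so these cannot be told apart. The naive mice carry separate series of sample names and library numbers, which were pooled with no batch term.

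**Figure D1:**
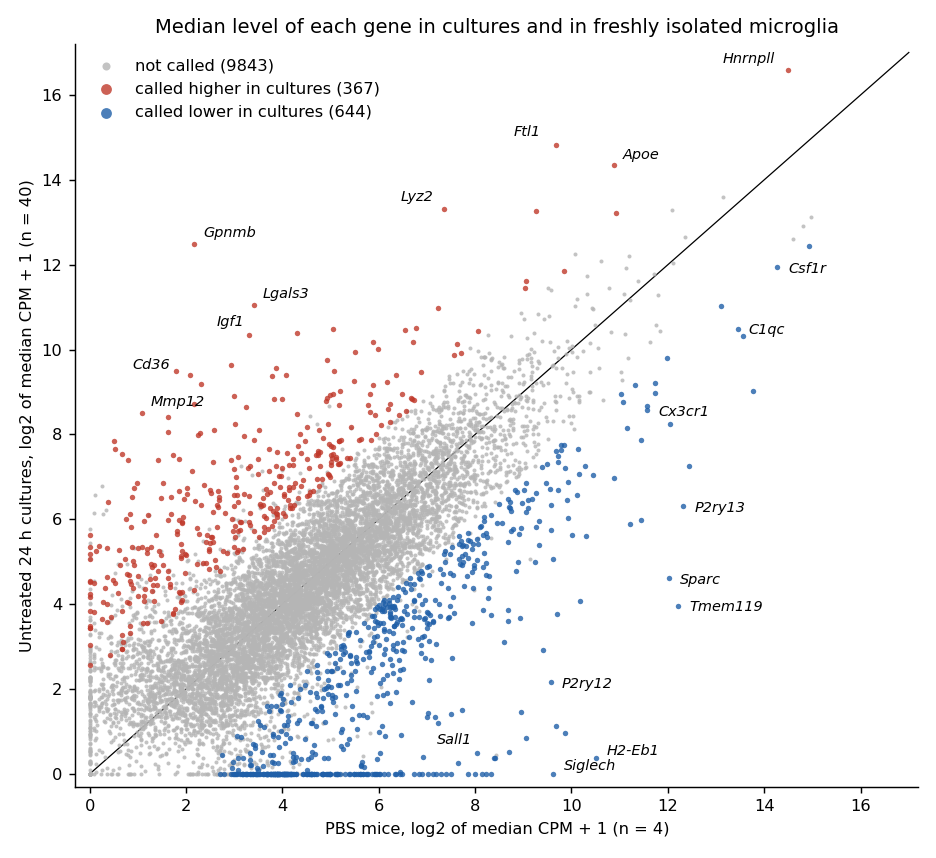
Each point is a gene entered, with log2 of the median CPM + 1 of the 4 PBS mice on the x axis and of the 40 untreated 24 h cultures on the y axis; the line marks equal medians, red points the 367 genes called higher in cultures and blue points the 644 called lower. Many blue points lie on the x axis, since 179 of the genes called lower had a culture median of 0 CPM.

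Among the 12 genes named for the widest gaps above the mice, Gpnmb, Adam8 and Lgals3 came first. Gpnmb, a glycoprotein of lysosome-rich macrophages, ranged from 3237 to 8384 CPM in the cultures (median 5704) and stood at 0.589, 5.20, 2.54 and 4.49 CPM in the 4 mice. The lowest culture was far above the highest mouse, a difference of medians of 10.34. Lgals3, galectin-3, ranged from 724 to 4160.1 CPM (median 2107), against 6.48, 7.36, 11.9 and 11.9 CPM (7.67). The macrophage elastase Mmp12 ranged from 93.9 to 1319 CPM (median 360.2), against 0.873, 0.433, 2.47 and 1.36 CPM (7.42). Its 40 cultures spread more widely than those of Gpnmb, yet none came near a mouse. Adam8, a membrane metalloproteinase, had a culture median of 726 CPM and at most 4.78 CPM in a mouse (7.72). The scavenger receptors Cd36 and Msr1, which take up oxidised and modified lipoproteins, differed by 7.33 and 6.89. Cd36 stood at 205 to 1232 CPM in cultures and 2.16 to 5.51 CPM in mice. Msr1 stood at 279 to 713 CPM and 2.77 to 4.93 CPM. The growth factor Igf1, which microglia make during white matter development, ranged from 597 to 1831 CPM in cultures and was at 5.10, 8.23, 9.50 and 13.8 CPM in mice (7.04). The other genes of the widest gaps were the secreted kinase gene Fam20c (7.34), Ahnak2 (7.14), the proton pump subunit Atp6v0d2 of osteoclasts and macrophages (6.93), the neuropeptide gene Npy (6.78) and Lgals1, galectin-1 (6.70).

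Among the 12 genes named for the widest gaps below the mice, H2-Eb1, Siglech and H2-Aa came first. H2-Eb1, an MHC class II chain, ranged from 0 to 22.8 CPM in the cultures (median 0.293) and stood at 1569, 1361, 1429 and 1477 CPM in the mice, a difference of -10.14. H2-Aa and H2-Ab1, chains of the same class, differed by -8.89 and -8.19. Siglech, a sialic acid receptor used as a microglial marker, had a culture median of 0 and a highest culture of 9.41 CPM, against 811, 790.2, 773 and 685 CPM in the mice (-9.61). Tmem119, a membrane protein that marks microglia among brain macrophages, ranged from 1.63 to 64.7 CPM (median 14.6), against 4968, 4245, 4573 and 4981 CPM (-8.25). By its group median it held place 15 of the 29858 genes in the mice and place 5941 in the cultures. Adgrg1, an adhesion receptor of microglia (-8.14), the collagen gene Col27a1 (-8.53) and the potassium channel Kcnd1 (-8.04) followed. The other genes of the widest gaps were the glutamate transporters Slc1a3 (-8.22) and Slc1a2 (-8.21), which astrocytes express strongly, Ighm of B cells (-8.22) and Camk2n1 (-8.01), an inhibitor of a neuronal kinase.

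Percentile ranks within a sample do not depend on how each table was scaled. By group medians over the 29858 genes, Gpnmb stood at percentile 100.0 in the cultures and 67.5 in the PBS mice, Mmp12 at 98.8 and 61.3, and Cd36 at 99.5 and 67.1. Siglech stood at percentile 30.9 in the cultures and 99.6 in the mice, Sall1 at 60.9 and 98.4, P2ry12 at 70.1 and 99.6, and Tmem119 at 79.9 and 100.0. For abundant genes a 4-fold difference moved the rank little. Csf1r stood at 99.9 and 100.0, and Apoe at 100.0 and 99.8. With no overlap of ranks and medians at least 20 percentile points apart in place of the 4-fold difference, 233 genes were higher and 271 lower, among them 60 of the 125 called genes named here.

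To show what stands before the genes that carry these results, the 250 bases upstream of the start of genes were read from RefSeq (GRCm38.p6) and searched on both strands for 8 motifs. Of the called genes, 272 higher and 482 lower had a promoter in the table, as had 8282 of the genes entered and 27025 genes in all. The AP-1 site TGACTCA, or TGAGTCA on the other strand, was found for 26 of the 272 higher genes (9.56%), 16 of the 482 lower genes (3.32%), 3.76% of the genes entered and 5.16% of all genes in the table. The PU.1 site GAGGAAGT (ACTTCCTC) was found for 14 higher (5.15%) and 25 lower genes (5.19%), 3.26% of the genes entered and 2.79% of all. The E-box TCACGTGA was found for 2.57% and 1.04% of higher and lower genes (1.85% of the genes entered, 0.907% of all), and CCAAT, or ATTGG on the other strand, for 35.3% and 43.2% (40.4% of the genes entered, 37.5% of all). The antioxidant response element was searched in only 1 fixed spelling, which contains the AP-1 site. That spelling was found for 1 higher and 0 lower genes (0.133% of the genes entered, 0.141% of all). Other spellings of the element were not searched, so these counts do not show which genes lack it. The MEF2 site was found for 0 higher and 3 lower genes (0.157%, 0.167%). The SMAD palindrome GTCTAGAC was found for 1 and 0 (0.193%, 0.200%) and the MHC class II X-box for 0 and 1 (0.133%, 0.196%). A match is a description of letters and not of binding. Shown first are 5 genes called higher with the AP-1 letters in capitals, which end 38 bases before the start of Mmp12 (chr9:7347124-7347373, + strand), 89 before that of Anxa2 (chr9:69453433-69453682, +), 96 and 39 before that of Srxn1 (chr2:152105274-152105523, +), 231 and 125 before that of Prdx1 (chr4:116685349-116685598, +) and 143 and 18 before that of Cd68 (chr11:69666171-69666420, - strand). Then come 3 genes with the PU.1 letters in capitals, Spp1 (called higher, chr5:104434861-104435110, +), C1qc (called lower, chr4:136892915-136893164, -) and Adora3 (called lower, chr3:105904171-105904420, +), the last of which also holds the AP-1 letters.
Mmp12: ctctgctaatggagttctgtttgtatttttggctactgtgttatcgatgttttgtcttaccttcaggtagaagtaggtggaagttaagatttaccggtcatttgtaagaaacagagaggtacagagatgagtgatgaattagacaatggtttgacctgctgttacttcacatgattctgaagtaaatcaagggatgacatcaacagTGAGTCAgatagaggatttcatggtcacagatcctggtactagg
Anxa2: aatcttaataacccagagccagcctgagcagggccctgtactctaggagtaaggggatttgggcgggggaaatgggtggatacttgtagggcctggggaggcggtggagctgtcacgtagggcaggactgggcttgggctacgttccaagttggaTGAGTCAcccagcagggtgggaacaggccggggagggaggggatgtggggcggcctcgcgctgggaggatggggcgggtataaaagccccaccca
Srxn1: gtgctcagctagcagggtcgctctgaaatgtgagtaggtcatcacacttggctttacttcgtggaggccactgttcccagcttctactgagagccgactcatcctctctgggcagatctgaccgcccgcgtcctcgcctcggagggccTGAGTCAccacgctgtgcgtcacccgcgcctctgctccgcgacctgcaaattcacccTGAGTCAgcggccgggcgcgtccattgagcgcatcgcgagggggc
Prdx1: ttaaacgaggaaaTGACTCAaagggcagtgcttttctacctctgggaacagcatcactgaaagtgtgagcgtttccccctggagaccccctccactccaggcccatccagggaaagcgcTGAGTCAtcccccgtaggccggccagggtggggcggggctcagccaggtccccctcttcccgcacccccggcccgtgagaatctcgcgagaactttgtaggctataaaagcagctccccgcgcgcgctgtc
Cd68: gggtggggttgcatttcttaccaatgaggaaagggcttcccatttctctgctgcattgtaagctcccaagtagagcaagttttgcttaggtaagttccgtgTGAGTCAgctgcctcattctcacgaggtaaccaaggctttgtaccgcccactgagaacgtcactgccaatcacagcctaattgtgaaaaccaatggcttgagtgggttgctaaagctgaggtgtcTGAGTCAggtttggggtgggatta
Spp1: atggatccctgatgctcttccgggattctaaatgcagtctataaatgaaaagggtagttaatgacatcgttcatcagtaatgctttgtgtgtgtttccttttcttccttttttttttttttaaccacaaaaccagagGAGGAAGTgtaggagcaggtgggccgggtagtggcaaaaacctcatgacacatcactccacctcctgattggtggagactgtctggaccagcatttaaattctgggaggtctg
C1qc: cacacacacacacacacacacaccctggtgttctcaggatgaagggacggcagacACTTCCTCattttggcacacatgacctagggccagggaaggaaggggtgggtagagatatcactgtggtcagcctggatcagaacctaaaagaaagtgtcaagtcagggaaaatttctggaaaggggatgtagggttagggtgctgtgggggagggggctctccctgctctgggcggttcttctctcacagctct
Adora3: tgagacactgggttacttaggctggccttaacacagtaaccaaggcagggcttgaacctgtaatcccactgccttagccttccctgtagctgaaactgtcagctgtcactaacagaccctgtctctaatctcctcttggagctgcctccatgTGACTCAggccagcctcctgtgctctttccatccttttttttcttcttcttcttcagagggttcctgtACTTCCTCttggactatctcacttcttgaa

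Of the homeostatic receptors and surface proteins, 21 of 25 were called lower in cultures and 0 higher, with a median difference of -3.90. Csf1r, the receptor for CSF1 and IL-34 that keeps microglia alive, ranged from 2175 to 6886 CPM (median 3927), against 17789, 21628, 21578 and 17916 CPM in the mice (-2.32). The purinergic receptor P2ry12, which steers microglial processes towards ATP, ranged from 0 to 12.8 CPM (median 3.49), against 629.5, 721, 793 and 1113 CPM (-7.40). Its relatives P2ry13 and P2ry6, receptors for ADP and UDP, did not go together. P2ry13 had a culture median of 78.0 CPM and 4832 to 5612 CPM in the mice (-6.02), whereas P2ry6 overlapped (5.88 to 80.9 and 28.6 to 35.3 CPM). The fractalkine receptor Cx3cr1 kept a median of 379.9 CPM (33.1 to 529), against 2717, 3612, 2793 and 3313 CPM (-2.998), one of the smaller differences of the list. Fcrls, an Fc receptor-like protein of mouse microglia, differed by -4.73 with 153 to 1692 CPM in cultures and 9710.5 to 16283 CPM in mice. Selplg, a selectin ligand (-5.19), Gpr34, a lysophosphatidylserine receptor (-6.47), and the fructose transporter Slc2a5 (-7.19) were also called lower. Slc2a5 had a culture median of 0 and a highest culture of 3.05 CPM. The members not called were Trem2, the lipid-sensing receptor, with 585 to 1274 CPM in cultures and 276 to 535 CPM in mice (1.10), P2ry6, Itgb5 (-1.36) and Nrros (-1.02). Trem2 was higher in all 40 cultures, by less than the minimum difference.

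Secreted and lysosomal proteins of the homeostatic program were called lower for 9 of 15 members entered and higher for 0, with a median difference of -2.96. Sparc, a matrix protein that resting microglia secrete, ranged from 0 to 303 CPM (median 23.4), against 4095, 4170.4, 4333 and 4140.2 CPM (-7.41). The protease inhibitor Cst3 ranged from 605 to 3392 CPM, against 12626, 11549, 15805 and 10667 CPM (-3.25). The cultures of Cst3 lay closer to the mice than those of Sparc. Olfml3, a secreted protein of microglia, differed by -5.31 with a culture median of 58.7 CPM and 2393, 3303, 2005 and 2344 CPM in the mice. Crybb1, a crystallin expressed by microglia, had a culture median of 0 and mice between 50.8 and 71.2 CPM (-5.95). The 3 chains of complement C1q did not go together. C1qc was called lower (696 to 5862 CPM, mice 9253 to 12116 CPM, -2.96), whereas C1qa (-0.41) and C1qb (-1.40) overlapped. Serpine2, a protease inhibitor, had medians -4.08 apart but overlapped, since its cultures reached 800.1 CPM. Gas6, a ligand of the receptor Mertk, was higher in all 40 cultures (median 596 CPM, mice 193 to 252 CPM) without reaching the minimum.

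**Figure D2:**
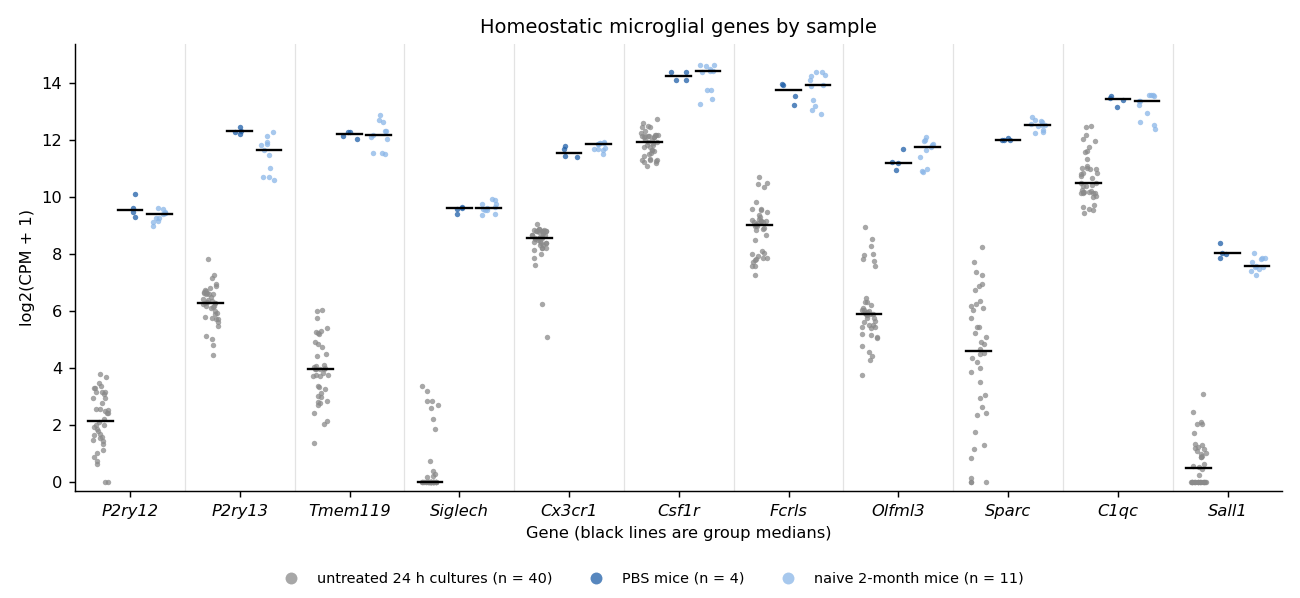
Level of 11 homeostatic genes as log2(CPM + 1) on the y axis, 1 point per sample, for the 40 untreated 24 h cultures (grey), 4 PBS mice (dark blue) and 11 naive mice (light blue); black lines are medians. The PBS mice of each gene lie above all cultures, by 8.25 for the medians of Tmem119 and by 2.32 for those of Csf1r.

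Of 19 microglial transcription factors entered, 4 were called lower and 0 higher, with a median difference of -1.10. Sall1, a zinc finger factor that defines microglial identity, ranged from 0 to 7.50 CPM (median 0.411), against 262, 259, 232 and 335 CPM (-7.53). Its relative Sall3 (-4.83), Ets1 (-4.00) and the TGFb effector Smad3 (-2.32) were the other 3. Smad3 stood at 20.95 to 246 CPM in cultures and 478 to 573 CPM in mice. Lineage factors that microglia share with other macrophages were not called. Spi1, which encodes PU.1, ranged from 355 to 3239 CPM in cultures and 657 to 1183 CPM in mice (0.34). Runx1 (0.23), Cebpa (0.59) and Mef2a (-0.32) also overlapped. For Irf8 (-1.51) and Mef2c (-1.67) all 40 cultures lay below the mice, but by less than the minimum difference.

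The disease-associated microglia list held 14 of 30 members called higher in cultures and 0 called lower, with a median difference of 2.09. The summed level of the 30 genes was 68212 to 127450 CPM in cultures and 11943 to 14308 CPM in mice. Apoe, the lipid carrier that leads this program in mice, ranged from 8167 to 59039 CPM (median 20916), against 1556, 2086, 1957 and 1799 CPM (3.48). Lyz2, lysozyme, ranged from 3949.5 to 20913 CPM, against 100.1, 183, 306 and 144 CPM (5.97). Spp1, osteopontin, had a wide spread in both groups, 168 to 2607 CPM (median 674) and 3.73, 10.5, 26.9 and 21.2 CPM (5.40), but no overlap. Lpl, lipoprotein lipase, had a culture median of 2015 CPM and mice between 89.9 and 201 CPM (3.76). The fatty acid carrier Fabp5 differed by 5.76. The lysosomal protease Ctsb (2.29), the tetraspanin Cd63 (2.37), the scavenger-like Cd68 (2.02), the adaptor Tyrobp (2.33) and the MHC class I chain H2-D1 (2.43) were called with smaller differences. H2-D1 has near-identical relatives, so its value is uncertain. Other members did not share this direction. Cst7, a cystatin induced near plaques, had a median of 0.571 CPM in cultures and 2.75 to 6.64 CPM in mice, the lower median being in cultures. Itgax (2.80), Clec7a (1.54) and Axl (1.43) had higher medians in cultures but overlapped or missed the minimum, and Cd9 (-0.84) and B2m (-0.74) had lower ones.

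**Figure D3:**
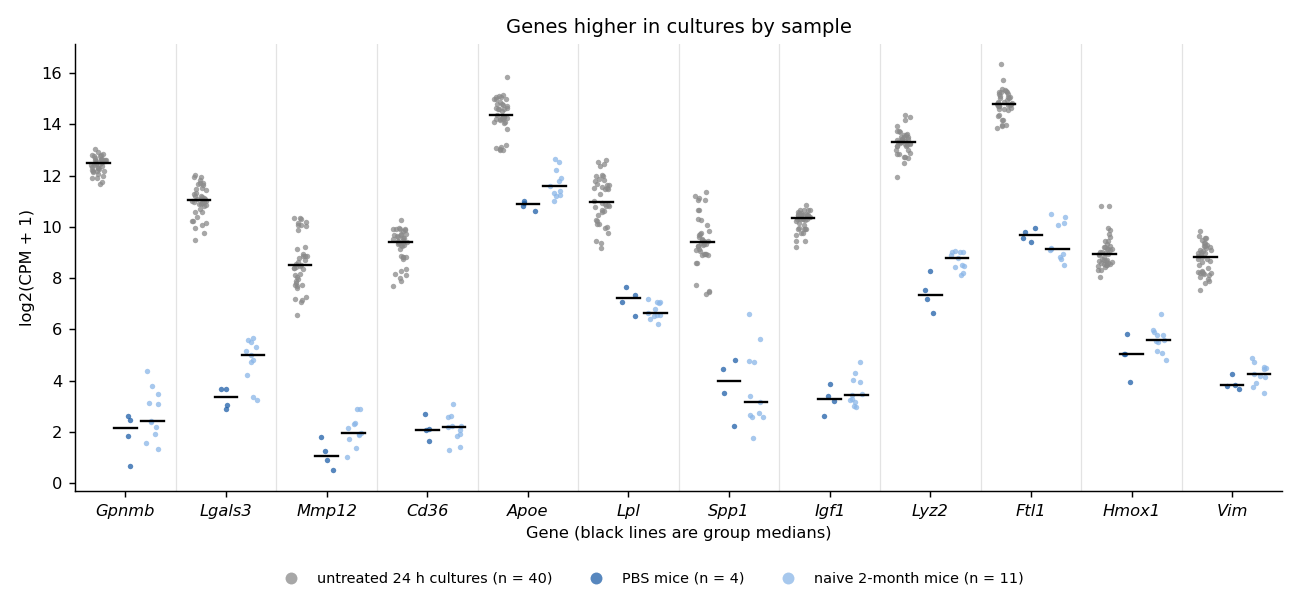
Level of 12 genes called higher in cultures as log2(CPM + 1) on the y axis, 1 point per sample, for the 40 untreated 24 h cultures (grey), 4 PBS mice (dark blue) and 11 naive mice (light blue); black lines are medians. All cultures lie above the PBS mice, by 10.34 for the medians of Gpnmb and by 3.48 for those of Apoe.

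Scavenger receptors and lipid handling genes were called higher for 10 of 24 members entered and lower for 1, with a median difference of 2.74. Plin2, which coats lipid droplets, ranged from 664 to 2439.9 CPM, against 17.5, 20.1, 20.6 and 11.7 CPM (6.09). Marco, a scavenger receptor of alveolar and other macrophages, was listed at 0 in all 4 mice and at 9.13 to 149 CPM in the cultures. The lysosomal acid lipase Lipa (3.28) and Fabp4 (3.72) were also called higher. Abcg1, an exporter of cholesterol, was the member called lower (14.7 to 90.9 CPM, mice 170.3 to 222 CPM, -2.59). Its partner Abca1 (-1.76) and the phagocytic receptor Mertk (-1.63) were below the mice in all 40 cultures, by less than the minimum. Of 19 genes of cholesterol synthesis, Fdft1 (2.10) and Sqle (2.45), which catalyse successive steps to squalene epoxide, were called higher and 0 lower, and the list's median difference was 1.37. Of 17 glycolytic genes, 3 were called higher, Pkm (2.57), Aldoa (2.50) and Gpi1 (2.23), and 0 lower (median 1.47). Pkm, the last enzyme of the pathway, stood at 1334 to 6921 CPM in cultures and 538, 553, 471 and 518 CPM in mice. Hexokinase 2 (Hk2, -1.74) was lower in all 40 cultures without reaching the minimum, and the glucose transporter Slc2a1 (-0.55) overlapped.

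Among 28 lysosome and phagosome genes, 6 were called higher and 1 lower, with a median difference of 0.96. Acp5, the tartrate-resistant phosphatase of osteoclasts, had a culture median of 36.99 CPM and at most 0.289 CPM in a mouse (5.12). The galactosidase Gla differed by 4.46 and the proton pump subunit Atp6v1a by 2.53. Cathepsin F (Ctsf) was called lower (22.3 to 130.4 CPM, mice 190.2 to 303 CPM). Cathepsin D (Ctsd) had medians 2.17 apart but overlapped, with 777 to 8561 CPM in cultures and 979.7 to 1337 CPM in mice. Grn, progranulin, had medians 0.31 apart (6483 CPM in cultures, 4547 to 6137 CPM in mice).

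Oxidative stress and iron genes were called higher for 9 of 18 members and lower for 0, with a median difference of 2.14. The ferritin light chain Ftl1 ranged from 15059 to 83295 CPM (median 28816), against 687, 752, 989 and 897 CPM (5.13), and the heavy chain Fth1 from 3460.2 to 25143 CPM, against 611, 769, 613 and 612 CPM (4.01). Both ferritin genes have many processed copies in the genome, so their reads may be shared with these. Hmox1, which degrades haem, ranged from 265 to 1819 CPM, against 55.5, 14.6, 32.3 and 32.3 CPM (3.89). Prdx1, a peroxiredoxin that reduces peroxides (3.74), and Srxn1, the sulfiredoxin that restores it (4.08), were called higher, and both have the AP-1 letters in the promoters printed above. These letters were found for no other called member of the list, some of which may have had no promoter to read. The glutathione synthesis subunit Gclm (2.42) and the thioredoxin reductase Txnrd1 (2.36) were called as well. The metallothioneins Mt1 (-0.05) and Mt2 (0.03) and the iron exporter Slc40a1 (-0.48) overlapped.

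Cytoskeleton and adhesion genes were called higher for 15 of 30 members and lower for 2, with a median difference of 1.96. Lmna, lamin A/C, ranged from 132 to 855 CPM, against 3.08, 5.51, 3.56 and 3.46 CPM (6.54). Vim, vimentin, ranged from 184 to 911 CPM, against 13.3, 11.8, 18.01 and 13.05 CPM (5.01). The actin-capping Capg (5.42), the hyaluronan receptor Cd44 (4.49), the annexins Anxa2 (4.83), Anxa1 (4.46) and Anxa5 (3.35), and S100a10 (3.72), S100a6 (3.51) and S100a11 (3.20) followed. Actb and the talin gene Tln1 overlapped, with differences of 0.47 and 0.29. Fscn1, which bundles actin, went the other way, with 0.852 to 63.6 CPM in cultures and 1198, 936, 1119 and 1228 CPM in mice (-6.10). The tubulin Tuba1a was also called lower (-2.14) and Tuba1c higher (3.84), but tubulin genes are near-identical and reads may be split between them.

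Proliferation genes had a median difference of 2.69, with 4 of 25 called higher and 0 lower. The called members were the replication licensing genes Mcm5 (3.19), Mcm6 (2.82) and Mcm2 (2.69) and the cyclin Ccne1 (2.73). Other members had medians as far apart but overlapped. Top2a, the topoisomerase of dividing cells, ranged from 7.31 to 822 CPM (median 344) around the 27.4, 23.2, 22.8 and 22.1 CPM of the mice, and Mki67 from 0 to 99.3 CPM (median 20.4) against 1.18, 1.73, 0.396 and 0.870 CPM. For both genes the lowest culture was below the mice and the highest far above them.

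Antigen presentation genes were called lower for 7 of 13 members entered and higher for 1, with a median difference of -2.47. All of the class II members entered were among the 7, namely H2-Aa, H2-Ab1, H2-Eb1, H2-DMa (-3.57), H2-DMb1 (-2.47) and the invariant chain Cd74 (-4.66). Cd74 stood at 0 to 3.26 CPM in cultures and 30.2, 39.7, 40.4 and 34.5 CPM in mice. The costimulatory ligand Cd86 was the other one (1.90 to 20.9 CPM, mice 114, 117, 147 and 129 CPM, -4.21). Class I chains had the opposite order, H2-D1 being called higher and H2-K1 having medians 1.82 apart with all 40 cultures above the mice.

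Complement was mixed, with 4 of 16 members called higher and 3 lower (median 0.53). Properdin (Cfp), which stabilises the alternative pathway convertase, ranged from 209 to 1688 CPM, against 11.4, 10.7, 14.8 and 14.4 CPM (5.59), and C2 (3.14), Cfb (2.67) and Cd59a (2.07) were higher too. C1qc and the integrin chain Itgam (-2.20) were among the lower ones. Of the Fc and C-type lectin receptors, Clec4d (6.603) and Clec12a (5.90) were called higher and Fcgr1 (-2.55) and Clec4a3 (-3.05) lower among 15 (median 0.82). Clec4d, a receptor for mycobacterial glycolipids, stood at 51.3 to 502 CPM in cultures and 0.392, 0.866, 0.594 and 1.305 CPM in mice.

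Inflammatory cytokines and chemokines were called higher for 2 of 19 and lower for 1, with a median difference of 0.51. Cxcl14 ranged from 119 to 719.8 CPM, against 11.6, 16.5, 5.34 and 4.93 CPM (5.50), and Ccl5 from 42.1 to 1279 CPM, against 30.02, 17.3, 31.1 and 35.2 CPM (3.96). Ccl12, a ligand of the receptor CCR2, was lower (-5.24). Tnf overlapped (26.2 to 409.7 and 64.8 to 85.9 CPM), as did Il1b (-0.92). The PBS mice themselves stood above naive mice for this list, with 8 of 14 members tested higher and 0 lower in limma (median 1.27), among them Tnf (3.12), Il1b (2.05) and Ccl12 (1.76). Injection, sex and library batch cannot be told apart in that difference. The summed level was 842 to 2674 CPM in cultures, 663 to 755 CPM in PBS mice and 207 to 455 CPM in naive mice. Among 20 interferon-stimulated genes, Rsad2 (2.79) and Zbp1 (2.19) were called higher and 0 lower (median 0.96). Of 25 immediate early and dissociation genes, which respond within minutes to handling, Fos (2.43) and Atf3 (3.38) were called higher and Btg2 (-3.66) and Rhob (-2.42) lower (median -0.66). Fos stood at 4.32, 1.44, 3.96 and 1.59 CPM in the PBS mice and 6.76 to 284 CPM in cultures. Of 22 TGFb signalling genes, Bambi, a pseudoreceptor that damps the pathway, was called higher (3.52) and the receptor Tgfbr1 (-3.44) and Smad3 lower (median 0.09). Tgfbr1 stood at 19.3 to 117 CPM in cultures and 603, 544, 623 and 772 CPM in mice, and Tgfb1 itself overlapped (0.91). Of 7 genes of the colony-stimulating factor axis, Tyrobp was called higher and Csf1r and the receptor Csf3r (-2.94) lower. Of 24 ribosomal protein genes 1 was called higher, Rpsa (2.50), and their median difference was 1.01. Over all genes entered, 3.38% were called higher and 5.93% lower. The shares of TGFb signalling genes (4.55% and 9.09%) and of ribosomal genes called higher (4.17%) lie near these. So do the shares called lower of the inflammatory (5.26%), immediate early (8%), scavenger and lipid (4.17%), cytoskeleton (6.67%) and lysosome (3.57%) lists.

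Markers of other cells moved with the groups, and their part in the results above was not tested. Astrocyte markers were called lower in cultures for 9 of 10 members entered, with summed levels of 3.87 to 44.0 CPM in cultures and 923 to 1921 CPM in mice, and the water channel Aqp4 had a culture median of 0. Oligodendrocyte markers were called lower for 6 of 9 and higher for 1, Cspg4 (3.21), with sums of 50.7 to 151 and 532 to 1661 CPM. Mbp, of myelin, stood at 16.98 to 54.1 CPM in cultures and 1094, 1236, 463 and 365 CPM in mice. Neutrophil markers were called lower for 7 of 9 (sums of 4.75 to 65.6 and 143 to 253 CPM), and S100a9, Ngp and Retnlg were listed at 0 in every culture. Erythrocyte globins were called lower for 4 of 4 entered, at up to 0.738 CPM in sum in a culture and 131 to 696 CPM in mice, B cell markers for 2 of 2, neuronal markers for 2 of 5 and monocyte markers for 2 of 7 with 1 higher. The globin genes are near-identical pairs, so single values are uncertain. Of the endothelial and T and NK cell markers 0 of 4 and 0 of 2 were called, and Cldn5, the endothelial tight junction gene, was listed at 0 in every culture and at up to 0.396 CPM in mice. Fibroblast and pericyte markers went the other way without being called (0 of 8), with sums of 18.1 to 1441 CPM in cultures and 35.4 to 48.9 CPM in mice, and Acta2, smooth muscle actin, ranged from 0 to 983 CPM in cultures. Of border macrophage markers, Ms4a7 (5.57) and Pf4 (3.96) were called higher among 9, whereas Cd163 and Lyve1 had culture medians of 0. As a check of the labels, the microglial and macrophage genes Csf1r, Cx3cr1, Trem2 and Itgam were above 0 in every culture and mouse. P2ry12, Tmem119, Siglech and Sall1, which define brain microglia, had culture medians of 3.49, 14.6, 0 and 0.411 CPM, so the cultures carried macrophage markers with little of those that set microglia apart.

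**Figure D4:**
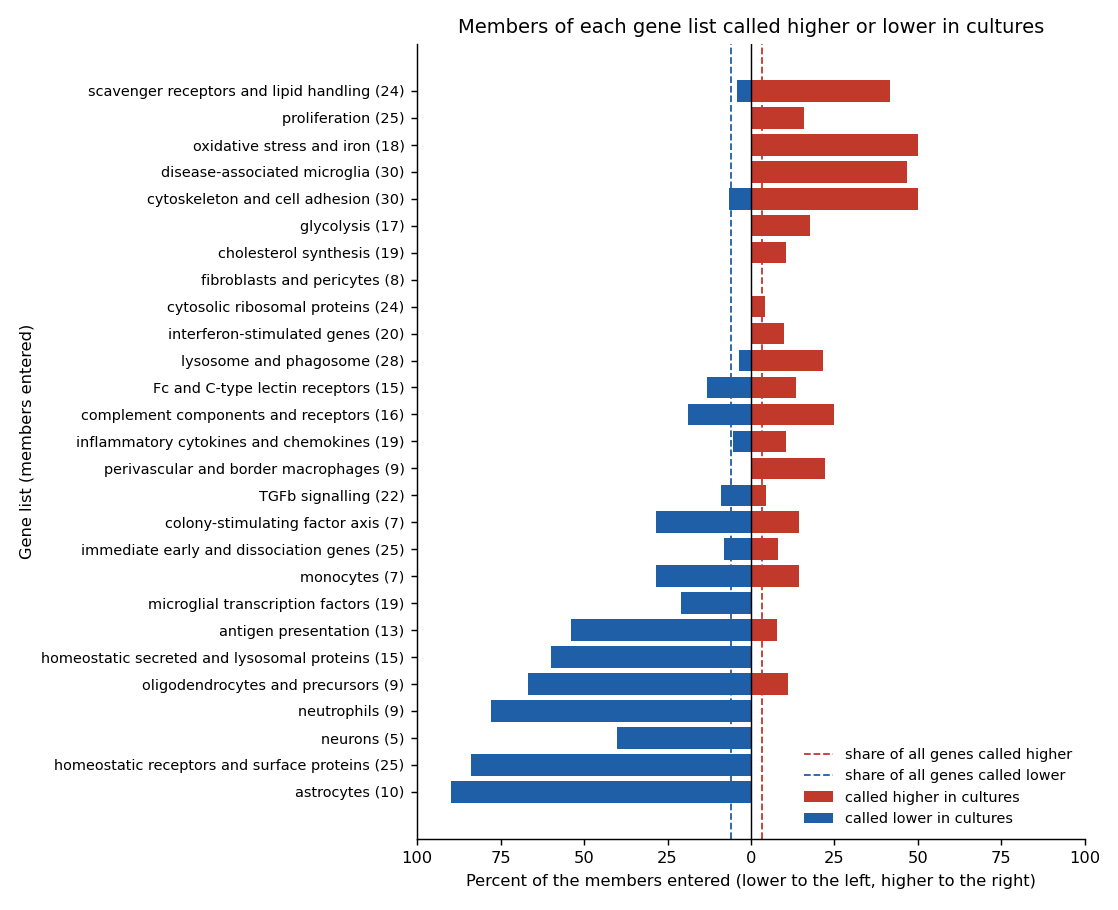
Percent of the members entered of each gene list that were called higher (red, to the right) or lower (blue, to the left) in the 40 cultures than in the 4 PBS mice, for lists with at least 5 members entered, ordered by median difference. Dashed lines mark the shares of all genes, 3.38% higher and 5.93% lower; astrocyte markers and homeostatic receptors reach furthest to the left, and the cytoskeleton and oxidative stress lists furthest to the right.

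The cultures differed among themselves. Over the 6 plates, 5505 of 11328 genes (48.6%) passed limma's F-test at an adjusted p of 0.05, and 15 of 22 homeostatic receptors and 14 of 14 homeostatic secreted proteins tested were among them. Lot A (19 cultures), lot B (13) and lot C (8, all on 1 plate) had Olfml3 medians of 59.2, 34.995 and 253 CPM. Serpine2 had lot medians of 26.6, 22.0 and 474 CPM, C1qc 1155, 1840.2 and 4168 CPM, and Fcrls 531, 255 and 1125 CPM. For these 4 homeostatic genes lot C lay nearest to the mice. Sparc went the other way, with 71.1, 13.8 and 0.453 CPM. Among the genes higher in cultures, Mmp12 had lot medians of 376, 1083 and 149.8 CPM and Spp1 492, 1613 and 833 CPM. Gpnmb had closer lot medians, of 4742, 5874 and 6316 CPM. The fibroblast gene Acta2 had medians of 245, 22.99 and 0.134 CPM, in the same order of lots as Sparc, and its part in that order was not tested. Lot and plate cannot be told apart in lot C, and no plate held mouse samples.

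With the naive males in place of the PBS mice, 235 of the 367 genes higher and 468 of the 644 lower in cultures were called again, among 255 (2.24%) and 654 (5.75%). With the 72 h cultures, all of lot C, in place of the 24 h cultures, 206 and 514 were called again, among 277 (2.66%) and 729 (7.01%). Within the culture table, limma found 190 genes higher (1.59%) and 1052 lower (8.78%) at 72 h than at 24 h by at least 1 on the log2 scale, where lot and time differ together. Within the lot of the 72 h cultures, 106 were higher and 107 lower. The naive mice had 2931 to 7508 CPM of Tmem119, 508 to 791 CPM of P2ry12, 1.51 to 19.9 CPM of Gpnmb and 8.46 to 49.5 CPM of Lgals3. Lgals3 differed between PBS and naive mice in limma (-1.45, adjusted p = 0.0217), and the other 3 did not pass (adjusted p of 0.245 to 0.959). All of these ranges lay outside those of the cultures. The LPS mice, which share their controls with the main comparison, stood at 3645 to 4797 CPM of Tmem119, 387 to 542 CPM of P2ry12 and 2.00 to 5.26 CPM of Gpnmb. For Tnf they stood at 1907 to 2975 CPM and for Ccl12 at 1199 to 1862 CPM, whereas the cultures had medians of 89.8 and 0.860 CPM. By the call rule, the LPS mice were higher than the PBS mice in 216 genes (2.40% of 9012) and lower in 10 (0.111%).

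TGFb is the signal of the brain that microglial homeostasis is known to need, and the 4 cultures given TGFb for 72 h share no sample with the cultures and mice above. All 4 stood on 1 plate, with 10 of the 25 untreated 72 h cultures, and all were of lot C. In limma, 79 genes rose (0.737% of 10714) and 36 fell (0.336%) at a Benjamini-Hochberg adjusted p under 0.05, and the median of all genes was 0.14. Among the homeostatic receptors 4 of 23 tested rose and 0 fell, and among the secreted proteins 5 of 14 rose and 0 fell. On the TGFb plate alone, 12 of 22 receptors rose and 3 fell, and 9 of 14 secreted proteins rose and 1 fell, beside 4.11% and 11.3% of all genes. Those that fell there were Csf1r (-0.80), Nrros (-1.66), Entpd1, an ectonucleotidase (-0.72), and Gas6 (-0.96). Cx3cr1 rose from a mean of 101.17 to 905 CPM, by 4.09 ± 0.98 (SE) on the log2(CPM + 1) scale (adjusted p = 0.0237), but lost the call without any 1 of the 4 TGFb cultures (adjusted p of 0.0730 to 0.144) and with plate in the model (0.114). Tmem119 rose from 14.7 to 136 CPM (log2 change 3.65 ± 0.67, adjusted p = 0.00150). Its 4 TGFb cultures, at 84.5, 182, 146 and 131 CPM, lay above all untreated 72 h cultures and far below the PBS mice. Serpine2 rose to 963, 839.7, 1098 and 835 CPM (log2 change 3.41 ± 0.51, adjusted p = 1.08e-04), which is above the PBS mice (552, 399, 769.7 and 571 CPM). Olfml3 (2.67), Itgb5 (1.79), Rnase4 (1.71), Tgfbr1 (1.63) and Cst3 (0.86) were among the other members that rose. Without 1 TGFb culture, Itgb5 and Rnase4 passed in 1 of 4 fits and Tgfbr1 in 2 of 4 (adjusted p up to 0.109, 0.0899 and 0.0555), and Tmem119, Serpine2, Olfml3 and Cst3 in all 4. On the TGFb plate alone these named members rose too, by 0.81 (Cst3) to 4.43 (Tmem119), with Cx3cr1 at a smaller 2.16 ± 0.17. P2ry12 (5.04, 14.7, 14.1 and 12.9 CPM, log2 change 2.27 ± 0.63) missed the threshold (adjusted p = 0.0723), as did Fcrls (adjusted p = 0.0636), but on the TGFb plate alone both passed (1.17, adjusted p = 0.0253, and 1.88, adjusted p = 1.38e-04). Of the 19 transcription factors tested 0 passed in limma (1 at an unadjusted p under 0.05), with 5 of 18 higher and 3 lower on the plate alone. Sall1 was at 3.16, 2.46, 4.32 and 2.46 CPM (adjusted p = 0.961).

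Among the genes higher in cultures, Mmp12 fell from 425 to 32.1 CPM with TGFb (-3.54 ± 0.38, adjusted p = 2.25e-07) and Lgals3 from 2094 to 646 CPM (-1.68 ± 0.17, adjusted p = 1.75e-07). Cd36 (-1.92), Vim (-1.78), Lmna (-1.71), S100a10 (-2.44), Capg (-1.18) and Cfp (-2.15) fell too, and without 1 TGFb culture Cd36 and Lmna passed in 1 of 4 fits (adjusted p up to 0.0899 and 0.106). Spp1 (0.94) and Tyrobp (0.76) instead rose. Spp1 had no call left without any 1 TGFb culture (adjusted p of 0.0789 to 0.311). It passed on the TGFb plate alone (1.27, adjusted p = 1.41e-07) and with plate in the model (adjusted p = 1.66e-07). Gpnmb did not pass (0.53, adjusted p = 0.547) except on the plate alone (0.59, adjusted p = 3.71e-04). Of the 32 genes that fell with TGFb and were entered in the main comparison, 18 were called higher in cultures than in mice (56.2%) and 1 lower (3.12%). Of the 75 that rose, 8 were called higher (10.7%) and 23 lower (30.7%). Among all 9763 genes of that fit in the main comparison the shares were 3.76% and 3.87%. The 18 genes are 4.90% of all genes called higher and the 23 are 3.57% of all called lower. Against the untreated cultures of the same plate alone, 402 of 9788 genes rose and 1105 fell. Of those in the main comparison, 18.7% of the 390 that rose were called lower in cultures and 10.3% higher. Of the 1055 that fell, 11.8% were called higher and 2.46% lower. Among all genes of that fit, 3.99% were called higher and 3.95% lower. By rank, a TGFb culture and a PBS mouse had a median Spearman rho of 0.759 across genes (0.735 to 0.778). An untreated 72 h culture and a PBS mouse had 0.679 (0.549 to 0.745), and these ranges overlap. The untreated 72 h cultures came from 4 plates and the TGFb cultures from 1, with median depths of 5.89 and 8.52 M reads. Plate, depth and TGFb cannot be told apart in these rho values.

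**Figure D5:**
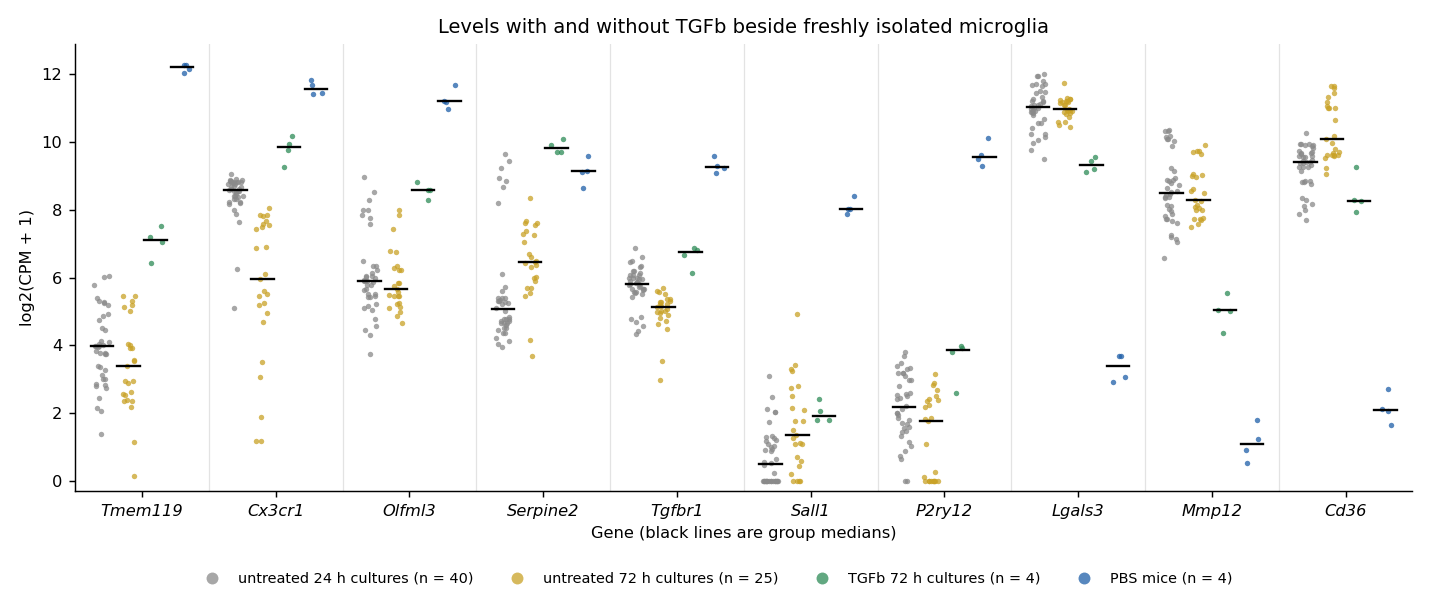
Level of 10 genes as log2(CPM + 1) on the y axis, 1 point per sample, for untreated 24 h cultures (grey, n = 40), untreated 72 h cultures (yellow, n = 25), TGFb 72 h cultures (green, n = 4) and PBS mice (blue, n = 4); black lines are medians. With TGFb, Tmem119, Cx3cr1, Olfml3, Serpine2 and Tgfbr1 lie nearer to the mice than in untreated cultures, as do Lgals3, Mmp12 and Cd36 from above, whereas Sall1 and P2ry12 stay far below them; levels of cultures and mice come from tables normalized apart.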

How the data were processed

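RNA of cultures and of CD11b+ cells from mice was amplified linearly with T7 and sequenced as 3' QuantSeq libraries. The authors aligned reads to the transcriptome of Ensembl build 81 with salmon 0.7.1 and deposited CPM values, gene reads per 1000000 mapped reads, in 2 tables normalized apart. The submitters' processing notes name mm8 as genome build. Reads of 3' libraries were counted without correction for length, so ranks, places and summed levels within a sample also reflect how each gene is captured, and were set side by side for the same gene or list. Of 715 further culture columns none was used.

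The 2 tables were joined on the 29858 shared gene names, and genes with more than 5 CPM in at least 4 of the 44 samples were entered. Low values were whole multiples of 1 read for only part of each library (73.2% to 85.1% of values up to 20 reads in the cultures, tolerance 0.1), so no count test was run and depths are estimates. Calls needed no overlap and a difference of medians of log2(CPM + 1) of at least 2. Fold changes on this scale understate those of low genes. Within the culture table, limma 3.58.1 (R 4.3.3) with a mean-variance trend and Benjamini-Hochberg adjustment at 0.05 compared TGFb with untreated 72 h cultures, plates, and 72 h with 24 h cultures (also at least 1 log2 apart), and within the in vivo table PBS with naive mice. P-values measure the spread between these samples, which for wells of 1 lot may be technical. Both procedures were tested on simulated data. For limma the simulated cultures had no plate or lot effects, so that test cannot show how the fits behave under such effects. Python 3.11.15, pandas 2.3.3, numpy 2.4.6, scipy 1.17.1 and matplotlib 3.10.9 were used.

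The samples, genes and 31 gene lists were chosen with earlier results of these data known. Named were the 12 widest differences in each direction (at least 50 CPM in the higher group, without predicted and ribosomal genes), and for each list its most abundant members and widest differences, the genes the study names, and in the TGFb comparison the homeostatic members that passed. Further members were chosen after their values were seen. Some genes that the rule names are not reported here. The header of the in vivo table gives another duration for the PBS mice, and the sample labels (PBS, 4 h) were followed. Alternatives changed scale, pseudocount, filter, minimum difference, mice, cultures and plates.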

Additional observations from a re-analysis of the deposited data

Results flagged for a closer look

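In 172 sets of 4 samples, 1 sample stood apart from the other 3 on the log2(CPM + 1) scale in 7 sets, 6 of PBS mice and 1 of TGFb cultures. Chance gives about 1 set in 20. P2ry12 was at 5.04 CPM in 1 TGFb culture and at 12.9 to 14.7 CPM in the other 3. In the PBS mice, C1qa was at 1898 CPM in 1 mouse and 1812 to 1815 CPM in the others, Fth1 at 769 CPM against 611 to 613 CPM, Cd63 at 212 CPM against 263 to 272 CPM, and Entpd1 at 409 CPM against 489 to 497 CPM. The galectin gene Lgals1 was at 2.46 CPM in 1 mouse and 6.28 to 7.32 CPM in the others, and Fam20c at 1.88 CPM against 0.392 to 0.433 CPM. Fth1, Cd63, Lgals1 and Fam20c were called higher in cultures, and for these the highest mouse stayed below the lowest culture.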

How the results depend on the processing

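The numbers of genes called stayed within 1.5 times of 367 higher and 644 lower under rescaling, centring, another pseudocount or filter, removal of the cultures under 2 M reads, naive mice or 72 h cultures, and without any 1 PBS mouse (370 to 384 higher, 659 to 669 lower). Percentile ranks gave 233 and 271 calls, which raised the share of higher genes from 36.3% to 46.2% of calls. A minimum difference of 1 gave 621 and 1007, and of 3 gave 214 and 390. With the cultures of 1 plate, higher calls numbered 748 (plate 1), 767 (plate 2), 632 (plate 4) and 720 (plate 5) and lower calls 1032 (plate 6), with fewer cultures that can overlap. Of 125 called genes named, 60 were called by ranks, 90 at a minimum of 3, 103 with naive mice, and 114 with a pseudocount of 5. No named gene reversed.

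The 115 genes changed by TGFb (79 higher, 36 lower) became 278 with no filter (234 higher, 44 lower) and 61 to 78 without 1 TGFb culture. With plate in the model they became 279, of which more fell (179) than rose (100). Against cultures of the TGFb plate alone they became 1507 (402 higher, 1105 lower). There 22 of 24 proliferation genes fell and 0 rose, and 20 of 28 cytoskeleton genes fell and 2 rose, beside 11.3% of all genes that fell. In the main fit 0 of 24 and 5 of 28 fell. The cause was not tested. The 1242 genes that differed between 72 h and 24 h became 442 with a pseudocount of 5 and 213 (106 higher, 107 lower) within the lot of the 72 h cultures, which leaves 8 cultures at 24 h. The 1395 that differed between PBS and naive mice became 788 to 991 without 1 PBS mouse. No paired analysis was possible because replicate numbers were given in accession order and pair no samples. Depth limits genes listed at 0 in the shallowest cultures.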

Other observations

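Rps2, which encodes a protein of the small ribosomal subunit, was listed at plate medians of 0 to 0.817 CPM in the 5 plates of lots A and B and at 154 CPM in lot C, with 205 CPM as the median of the 72 h cultures of that lot and 45.5 to 62.6 CPM in the PBS mice. Rpsa, another protein of that subunit, had plate medians of 86.4 to 150.2 CPM. Both genes have many processed copies. The collagen gene Col1a1 had lot medians of 74.4, 14.2 and 2.24 CPM in lots A, B and C and stood at 10.97 to 18.2 CPM in the PBS mice. These genes were chosen after their values were seen.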
